A study of Homo sapiens with 16 samples.

Results

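Each condition of this expression study of SK-OV-3 cells was sequenced as replicate 1 and as replicate 2, and the 8 libraries of the first number were compared with the 8 of the second, pair by pair within groups. A gene was counted as a member where replicate 2 differed from replicate 1 in the same direction in all 8 pairs. The deposited table lists 57820 genes in RPKM (reads scaled by gene model length and library size), of which 18149 reached at least 1 RPKM in 2 or more libraries and could be counted. Among these, 5576 genes (30.7%) were members: 2776 (15.3%) were higher in replicate 2 in all 8 pairs and 2800 (15.4%) were lower. The direction chose the members, so these counts are a description. They depend on the scaling: with each library centred on its median, 2311 genes were higher and 4448 lower in all 8 pairs (34.2% of them higher, against 49.8%). The mean log2(RPKM + 1) difference of the higher members ran from 0.03 to 3.06 with a median of 0.44, and that of the lower members from -0.88 to -0.04 with a median of -0.17. Just outside the rule, the 1118 genes higher in 7 of 8 pairs had a median of 0.18 and the 2634 genes lower in 7 of 8 had a median of -0.14.

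SK-OV-3 is an established human ovarian carcinoma line known for amplified ERBB2 and the lack of p53. Its cells carried a scrambled short hairpin (shScramble) or 1 of 3 hairpins against the arginine methyltransferase PRMT1 (shPRMT1 #1, #3 and #5), and each of these 4 populations was left untreated or given 20 µM cisplatin, a DNA-crosslinking drug, for 24 h. The 8 groups were therefore shScramble, shPRMT1 #1, shPRMT1 #3 and shPRMT1 #5 without drug and the same 4 with cisplatin, with 1 library per replicate number in each. All populations carried a hairpin, so no unmodified cells were measured, and the labels do not say whether a population was a pool or a clone. The replicates are labelled biological; what else the number stands for (a culture, a day of extraction, a sequencing run) is not given in the sources used here, so p-values measure the spread between these 8 pairs.

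PRMT1, the targeted gene, was lower in every knockdown library than in every control library. The 4 shScramble libraries held 19.3 and 23.5 RPKM untreated and 17.8 and 20.5 RPKM with cisplatin in replicates 1 and 2, and the 12 shPRMT1 libraries held 4.12 to 10.4 RPKM. PRMT1 was itself a member: replicate 2 was higher in 8 of 8 pairs, by 0.33 (SE 0.08) on the log2 scale (limma, adjusted p = 0.00877). With cisplatin the shPRMT1 #3 pair differed least, at 4.13 and 4.14 RPKM.

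Human transcripts differ widely in their content of guanine and cytosine (G+C). Genes rich in G+C crowd on chromosomes such as 16, 19 and 22, tend to have short introns and include many housekeeping, transcription factor and matrix genes, whereas many cell division genes and the zinc finger genes of chromosome 19 are poor in G+C. The share of fragments recovered when a sequencing library is amplified is known to depend on their G+C content. For each gene the G+C content used here is that of its longest transcript in GENCODE release 29, which 17484 (96.3%) of the genes counted matched by identifier.

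Coding sequences of a few member genes are shown as examples. These genes were chosen with their differences known and do not stand for all members. For 3 genes that were higher and 3 that were lower in replicate 2, the 120 coding bases nearest in G+C to the gene's whole coding sequence are printed, from 1 exon each, read 5′ to 3′ on the gene's strand, with G and C in capitals (GENCODE release 29, GRCh38).
NME3 (chr16:1771281-1771400, minus strand): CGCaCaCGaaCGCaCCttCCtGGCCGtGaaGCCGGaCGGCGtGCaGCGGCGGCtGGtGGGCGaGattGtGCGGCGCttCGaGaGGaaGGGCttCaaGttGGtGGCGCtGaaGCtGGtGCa
EVA1B (chr1:36322604-36322723, minus strand): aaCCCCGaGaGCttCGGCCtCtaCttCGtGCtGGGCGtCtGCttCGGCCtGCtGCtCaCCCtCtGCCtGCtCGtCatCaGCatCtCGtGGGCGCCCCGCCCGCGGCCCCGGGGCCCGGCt
JUNB (chr19:12791829-12791948, plus strand): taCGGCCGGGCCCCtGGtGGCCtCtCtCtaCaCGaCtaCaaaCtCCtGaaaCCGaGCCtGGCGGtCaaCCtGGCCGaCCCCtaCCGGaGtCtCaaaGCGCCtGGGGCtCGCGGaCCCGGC
CDK1 (chr10:60784714-60784833, plus strand): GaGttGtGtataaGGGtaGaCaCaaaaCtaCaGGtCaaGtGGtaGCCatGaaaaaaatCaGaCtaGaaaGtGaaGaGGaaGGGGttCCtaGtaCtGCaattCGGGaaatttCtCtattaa
KIF11 (chr10:92632490-92632609, plus strand): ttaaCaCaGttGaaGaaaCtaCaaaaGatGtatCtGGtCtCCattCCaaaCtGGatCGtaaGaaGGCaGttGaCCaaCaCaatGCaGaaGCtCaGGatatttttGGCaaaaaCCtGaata
STARD4 (chr5:111499987-111500106, minus strand): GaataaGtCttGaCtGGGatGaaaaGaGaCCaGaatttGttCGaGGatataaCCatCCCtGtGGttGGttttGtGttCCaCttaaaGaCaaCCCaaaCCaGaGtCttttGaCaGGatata
The first 3 stretches hold 80, 86 and 81 G or C bases of 120, with 14, 13 and 11 CpG pairs, and the last 3 hold 47, 46 and 48, with 1 CpG pair each. Over the whole transcript, G+C was 66.0% in NME3, 66.0% in EVA1B and 64.9% in JUNB, against 37.0% in CDK1, 38.3% in KIF11 and 34.2% in STARD4.

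The genes that differed most were higher in replicate 2. Clone-named records and genes under a mean of 5 RPKM in the higher number were left out of the 12 largest in each direction. NME3, a nucleoside diphosphate kinase (GRCh37 chromosome 16, 1820286 to 1821731), held 0.262 RPKM at the lowest, 0.757 at the median and 2.78 at the highest in the replicate 1 libraries and 4.40, 8.66 and 11.7 in replicate 2. All 8 replicate 2 libraries lay above all 8 of replicate 1, and the differences on the log2(RPKM + 1) scale ran over the pairs from 1.54 to 3.09 around a mean of 2.25 (SE 0.17, limma, adjusted p = 0.000119). EVA1B, a membrane protein gene on chromosome 1, moved from a median of 0.900 to 6.81 RPKM (log2 difference 2.14, SE 0.15). DPM3, a subunit of the dolichol-phosphate mannose synthase, moved from 4.71 to 17.9 RPKM (log2 difference 2.01, SE 0.27). ISG15, a ubiquitin-like modifier induced by interferon, held 2.45 to 18.4 RPKM in replicate 1 and 20.5 to 41.1 in replicate 2. NDUFB7, a subunit of respiratory complex I, held 5.42 to 40.3 and 45.1 to 69.6 RPKM. For both genes the libraries of the 2 numbers were fully apart, and for both the lowest library was shPRMT1 #1 with cisplatin, replicate 1.

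**Figure D1:**
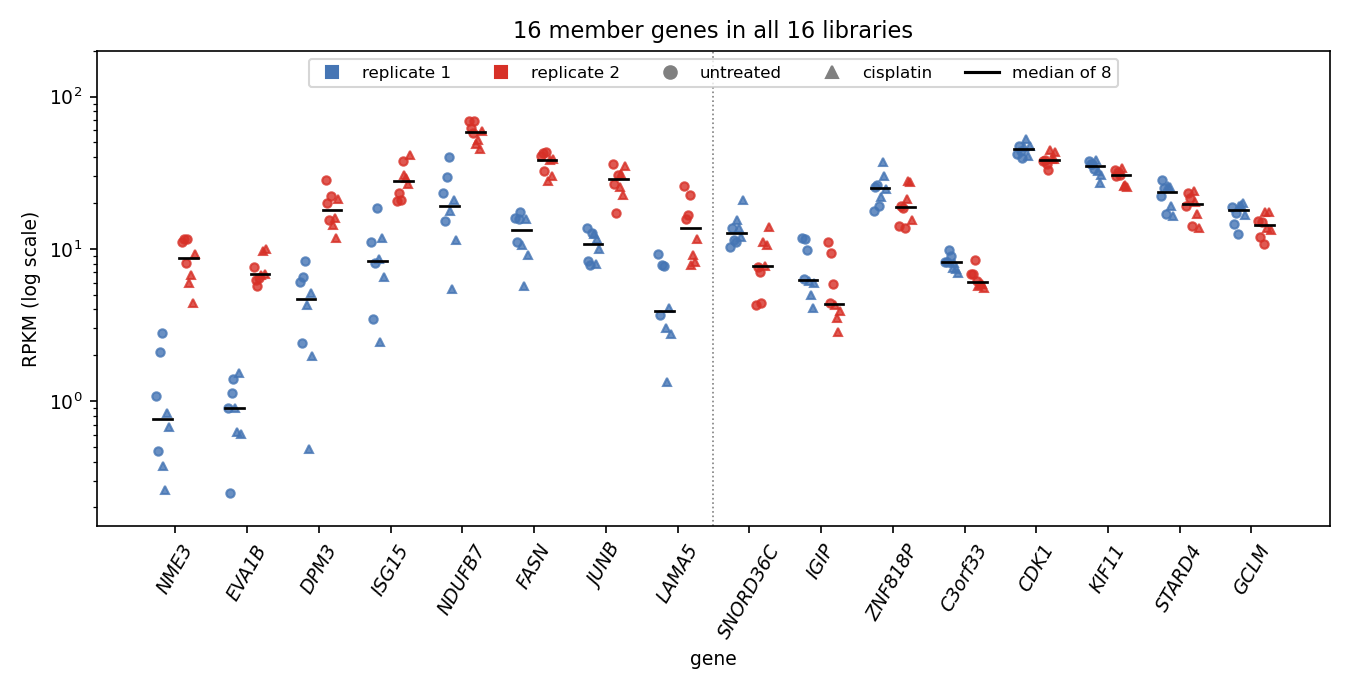
RPKM (log axis) of 16 member genes in the 8 replicate 1 libraries (blue) and the 8 replicate 2 libraries (red), circles untreated and triangles cisplatin, with a bar at the median of each 8. The 8 genes left of the dotted line were higher in replicate 2, by 2.25 on the log2 scale in NME3, and the 8 genes right of it were lower, by much smaller steps that leave the libraries overlapping.

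The other increases among the 12 largest were ZNHIT2, a cofactor of chaperone complexes; SCAND1, a SCAN domain protein; C19orf71; CHTF18, part of an alternative clamp loader for DNA replication; RTN4R, the Nogo receptor; CLIC3, an intracellular chloride channel protein; and MIR4442. The log2 differences of all 12 lay between 1.61 and 2.25, and 10 of the 12 had no overlap between the libraries of the 2 numbers. These 12 were picked for size. Over the 18149 genes counted, all replicate 2 libraries lay above all of replicate 1 in 535. The 11 with a G+C value stood between 60.5% and 69.5%. MIR4442 had no match; its hairpin in RefSeq (GRCh38.p14) holds 42 G or C in 67 bases (62.7%). The mature product annotated there is shown with its seed (bases 2 to 8) in capitals; these libraries, made from longer RNA, do not measure it, and the reads belong to the locus.
hsa-miR-4442: gCCGGACAagagggagg
The MIR4442 values rested on 0 to 10 reads in replicate 1 and 8 to 17 in replicate 2.

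Decreases were smaller, and in none of the 12 largest were the libraries of the numbers apart. Such a separation was rare on this side, with 6 of the 18149 genes counted. SNORD36C, a box C/D small nucleolar RNA, held 10.3, 12.8 and 21.0 RPKM (lowest, median and highest) in replicate 1 and 4.30, 7.66 and 13.9 in replicate 2, a log2 difference of -0.70 (SE 0.10, limma, adjusted p = 0.000587). Its record is 66 bases long, and these values rested on only 10 to 17 reads in replicate 1 and 4 to 12 in replicate 2. IGIP, which encodes an IgA-inducing protein, fell by 0.40 on the log2 scale from a median of 6.24 to 4.36 RPKM. SNORA33, a box H/ACA small nucleolar RNA, fell by 0.36. C3orf33 fell by 0.31, with 6.96 to 9.81 RPKM in replicate 1 and 5.51 to 8.43 in replicate 2. The remaining 8 of the 12 largest decreases were the ubiquitin-conjugating enzyme UBE2W, the intronic transcript ANKRD10-IT1, the zinc finger pseudogenes ZNF818P and ZNF876P, and RPS24P8, DSTNP1, SRP9P1 and CDC42P6, copies of expressed genes whose reads cannot be told from those of their parents with certainty. All 12 differences lay between -0.70 and -0.31, the libraries of the 2 numbers overlapped in each, and transcript G+C ran from 33.2% to 45.2%.

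Across all genes, limma (log2(RPKM + 1), group as a covariate, Benjamini-Hochberg) called 8420 of 18149 genes (46.4%) different between the numbers, 3670 (20.2%) higher and 4750 (26.2%) lower in replicate 2. Of the 5576 members 5450 were called; members and calls come from the same contrast, and nothing is read from that. The higher side held the large differences: 244 called genes (1.34%) were at least 2-fold higher on this scale, and 1 (0.00551%) was at least 2-fold lower. At least 1.5-fold in every pair was met by 190 of the 2776 higher members and 0 of the 2800 lower members. All 8 replicate 2 libraries stood above all 8 of replicate 1 in 535 of the 18149 genes and below them in 6. When each library was centred on its median the direction of the counts shifted, to 2947 higher and 7452 lower (28.3% higher, against 43.6% without centring), with the median of all genes moving from -0.05 to -0.13.

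Transcript G+C content tracked the direction and the size of the difference. Median G+C was 60.3% in the higher members, 40.7% in the lower members and 47.5% in all genes counted. CpG pairs per kilobase were 43.5, 14.8 and 21.0. Over 17484 genes, which share their libraries and are not independent, Spearman's correlation of the mean difference with G+C was 0.77, against 0.62 with CpG density. Over all 18149 genes it was 0.02 with gene model length and -0.06 with mean RPKM. Below 35% G+C the median difference was -0.20 and no gene was higher in all 8 pairs. It crossed 0 between 45 and 55% G+C (-0.07 below 50% and 0.02 above) and reached 0.45 at 60 to 65% and 0.71 at 65 to 70%, where 78.2% of genes were higher in all 8 pairs. No gene of 60% G+C or more was lower in all 8.

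**Figure D2:**
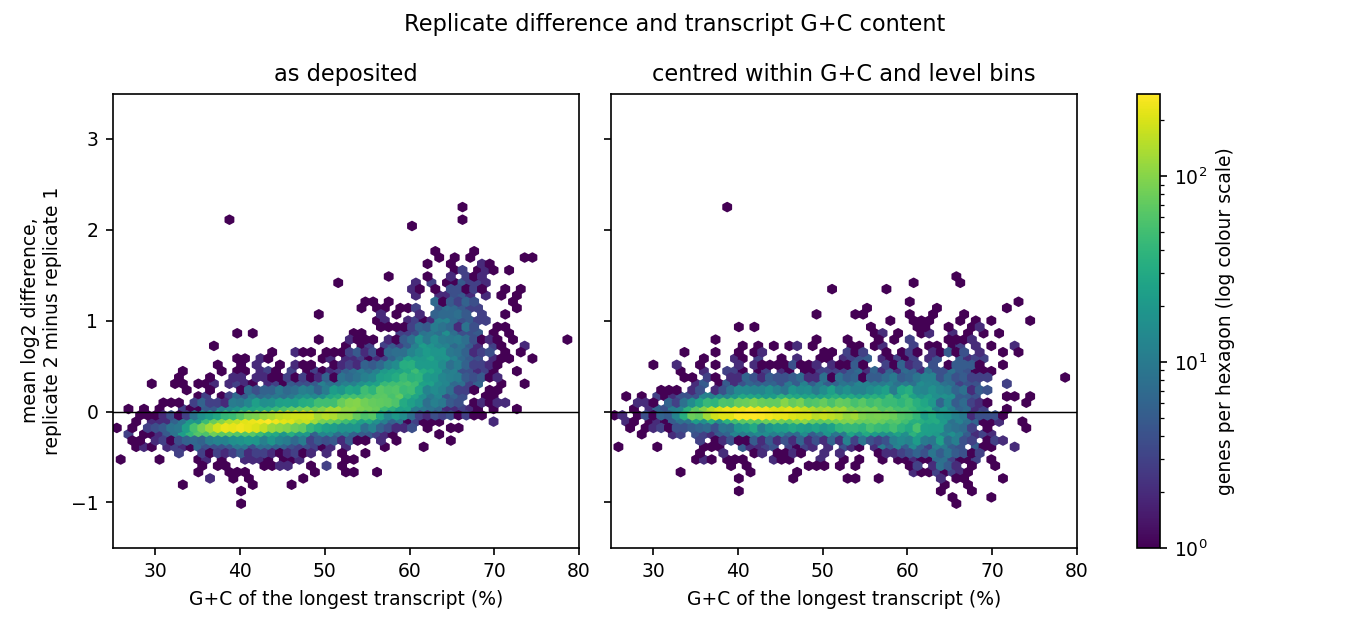
Mean log2 difference (replicate 2 minus replicate 1) against G+C content of the longest transcript for 17484 genes, coloured by genes per hexagon on a log scale, as deposited (left) and after centring within bins of G+C and level (right). The cloud rises from about -0.20 at the lowest G+C to 0.71 at 65 to 70% on the left and is flat but still spread at high G+C on the right.

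The gradient was present in each pair, with a different slope. The median difference of the 1989 genes of 60% G+C or more was 0.87 in shPRMT1 #1 with cisplatin, 0.69 in shPRMT1 #1 untreated and 0.66 in shPRMT1 #5 with cisplatin. It was 0.49 in shScramble untreated, 0.39 in shPRMT1 #3 untreated, 0.34 in shScramble with cisplatin, 0.34 in shPRMT1 #5 untreated and 0.28 in shPRMT1 #3 with cisplatin. The shPRMT1 #1 cisplatin pair gave the largest of the 8 differences for 2092 of the 2776 higher members and for 1629 of the 2800 lower members. For higher members the smallest difference was most often that of shPRMT1 #3 with cisplatin (1083 genes). Spearman's correlation with G+C ran from 0.42 in the shScramble cisplatin pair to 0.72 in the shPRMT1 #1 cisplatin pair.

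**Figure D3:**
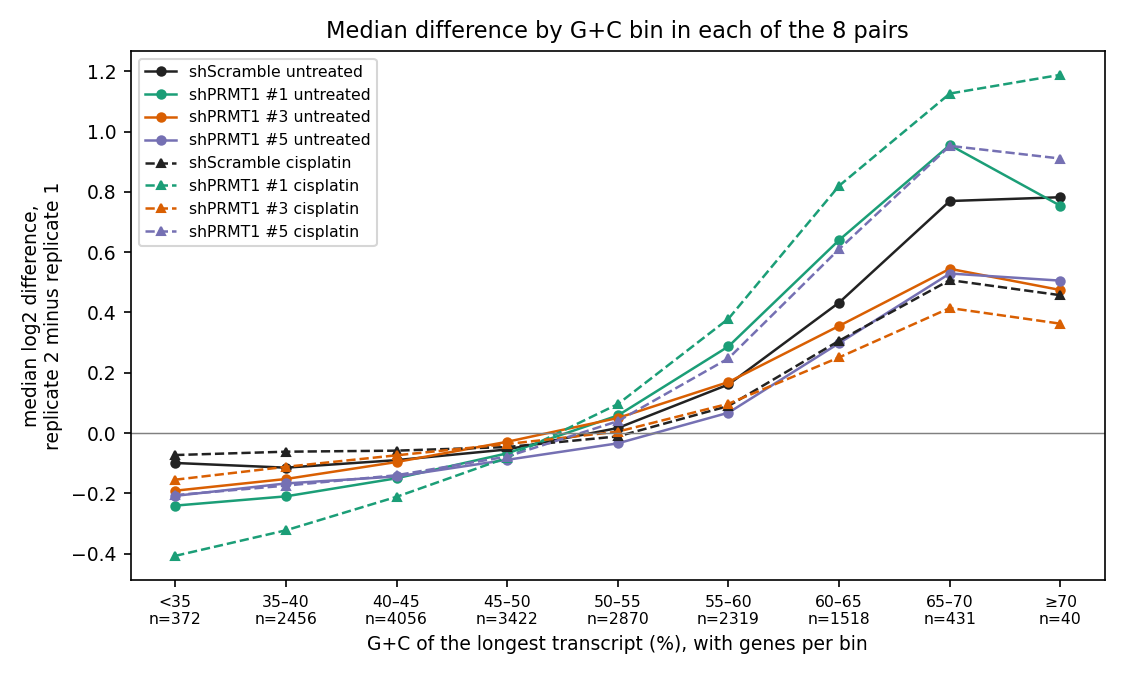
Median log2 difference (replicate 2 minus replicate 1) in 9 bins of transcript G+C, with 1 line per pair (solid with circles untreated, dashed with triangles cisplatin; the number of genes stands under each bin). All 8 lines start below 0 and end above it; the shPRMT1 #1 cisplatin pair is steepest and the shPRMT1 #3 cisplatin pair is the lowest at 65 to 70% G+C, at 0.41.

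The same shift was visible in the reads of each library. Weighted by reads, mean transcript G+C was 45.6% to 47.1% (median 46.4%) in the replicate 1 libraries and 47.1% to 48.0% (median 47.6%) in replicate 2. Replicate 2 was higher in 8 of 8 pairs, by 1.17 percentage points on average (SD 0.498, exact paired permutation test, two-sided, p = 0.0078125, the smallest that 8 pairs can give, and 0.0215 after adjustment over 11 measures). Genes of 60% G+C or more took 4.33% to 7.36% of reads in replicate 1 and 8.50% to 10.2% in replicate 2. Genes under 40% took a median of 23.6% and 20.7%, less in replicate 2 in 8 of 8 pairs. These G+C measures were not among the library measures planned. They restate the trend by gene from the same reads, so their exact test adds no separate support. Total reads ran from 12289300 to 14677733 and from 12907904 to 16039735 and did not pass the same exact test (p = 0.391). The shares of ribosomal protein genes (p = 0.539) and replication histone genes (p = 0.156) did not pass the exact test either. Processed pseudogenes took less of the reads in replicate 2 in 7 of 8 pairs (exact permutation p = 0.0469, 0.103 after adjustment).

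**Figure D4:**
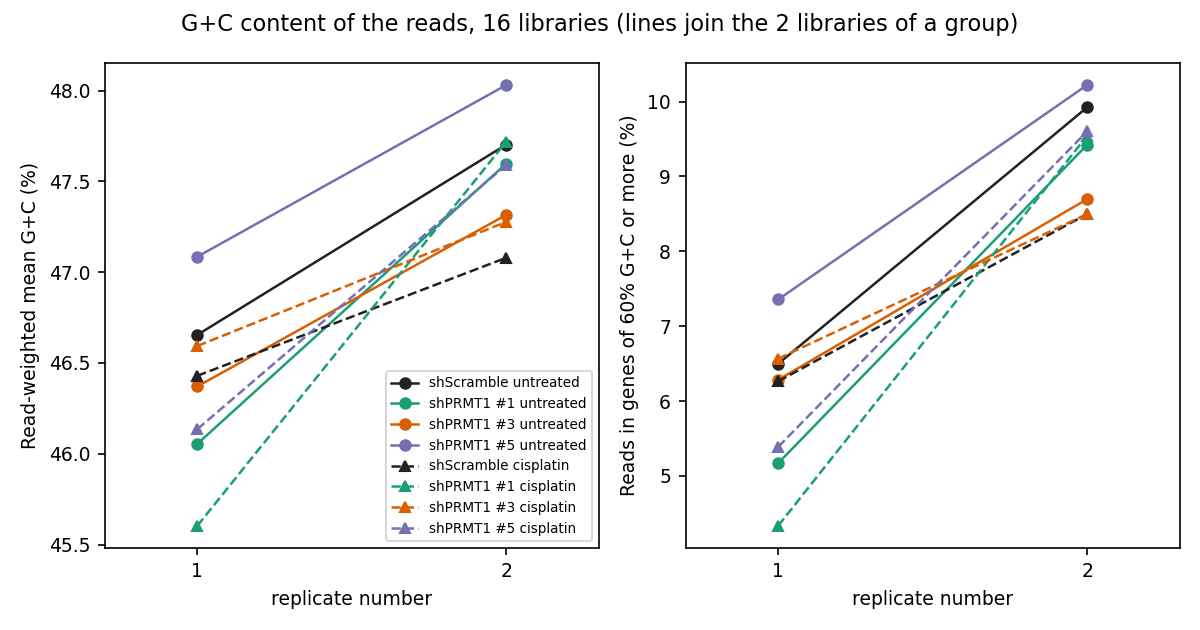
Read-weighted mean transcript G+C (left) and percent of reads in genes of 60% G+C or more (right) in the 16 libraries, with a line joining replicate 1 and replicate 2 of each group; the vertical axes do not start at 0. Every line rises, and the line of shPRMT1 #1 with cisplatin starts lowest, at 45.6% and 4.33%.

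Among the 1989 genes of 60% G+C or more, 1459 were higher in all 8 pairs and 530 were not. The difference varied with level: its median was 0.31 in genes under 2 RPKM, 0.64 at 5 to 10 RPKM, 0.47 at 20 to 50 RPKM and 0.34 in the 14 genes of 50 RPKM or more. The log2(RPKM + 1) scale understates changes of low genes, which lowers the value under 2 RPKM. The most abundant transcripts lay near a common read density, and its part in the value at 50 RPKM or more was not tested. The difference also varied with the share of low-G+C stretches in the transcript. Where none of the 200-base windows of a transcript fell below 55% G+C the median difference was 0.60 (463 genes), and where over 30% of windows did it was 0.10 (54 genes), with median transcript G+C of 65.1% and 60.7%. The share higher in all 8 pairs was 62.0% and 31.5% in these classes and highest, at 83.4%, where up to 10% of windows did. NRARP, a regulator of Notch signalling with 67.3% G+C, held a median of 6.19 RPKM in replicate 1 and 5.66 in replicate 2. MUC1, a membrane mucin with 71.2%, held 5.42 and 5.88 RPKM, and SHISA4, a membrane protein gene with 64.4%, held 9.67 and 10.2 RPKM. These 3 genes were chosen after their values were seen and were not called.

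Among the 6884 genes under 45% G+C, 2298 were lower and 19 were higher in all 8 pairs. CYP51A1, the lanosterol demethylase of cholesterol synthesis, had 41.5% G+C, yet it rose from 0.428 to 0.929 RPKM in replicate 1 (median 0.508) to 1.27 to 2.18 in replicate 2 (median 1.91). The libraries did not overlap, and the log2 difference was 0.85 (SE 0.07, limma, adjusted p = 0.000124). In the deposited coordinates LRRD1, on the same strand, covers all but the end of CYP51A1 (30795 of 30803 bases). CTB-161K23.1, on the other strand, covers 8350 bases of it, and the libraries were unstranded. The reads of these overlaps cannot be assigned with certainty. FTH1 (ferritin heavy chain, 50.1% G+C) rose by 0.33, SEC61B (a subunit of the translocon of the endoplasmic reticulum, 48.8%) by 0.33 and COX6A1 (a cytochrome oxidase subunit, 40.8%) by 0.21. 2 records with clone names were also chosen after their values were seen. AC079949.1, a 57-base record, held 0 to 3 reads in replicate 1 and 5 to 21 in replicate 2. RP11-785H5.1 (202 bases, 38.7% G+C) held 1 to 6 and 14 to 29 reads, a log2 difference of 2.07 (SE 0.18).

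Lists of genes with a shared role were counted next, against 20.2% higher and 26.2% lower calls and a median difference of -0.05 over all genes. Among 25 AP-1 and immediate early genes, 18 rose and the other 7 were not called, with a median log2 difference of 0.24 and a median G+C of 55.4%. JUNB, a subunit of AP-1, held 7.89, 10.8 and 13.8 RPKM in replicate 1 and 17.2, 28.6 and 35.8 in replicate 2, with no overlap (log2 difference 1.32, SE 0.11, limma, adjusted p = 0.000124). JUN rose by 0.44, from a median of 31.2 to 45.8 RPKM. The early response gene IER3 rose by 0.56, again without overlap, and ZFP36, which destabilises AU-rich mRNAs, by 0.53. With every library centred on its median, or with quantile normalization, the list's median stayed above 0 (0.16 and 0.22). Neither scaling takes out a trend with G+C. After centring within bins of G+C and level the list's median was 0.066.

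Of 31 listed regulators of G2 and mitosis, 22 fell and 4 rose, at a median G+C of 43.2% and a median difference of -0.11. CDK1, the mitotic kinase, held 39.7, 45.1 and 52.5 RPKM in replicate 1 and 32.9, 38.6 and 44.4 in replicate 2. KIF11, a spindle motor, moved from 34.8 to 30.4 RPKM at the median. Both were lower in 8 of 8 pairs with overlapping libraries. CDK1 fell by 0.21 (SE 0.04) and KIF11 fell by 0.19 (SE 0.03) on the log2 scale. PLK1 (57.1% G+C), another mitotic kinase, and the phosphatase CDC25B (59.3%) rose by 0.29 and 0.22. The list of 41 S phase genes held 11 that rose and 18 that fell. CDT1, a licensing factor (64.9% G+C), rose by 1.22 and the polymerase subunit POLD1 by 1.12, while MCM5 (57.0%) rose by 0.45.

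Of 29 genes for collagens, laminins and other extracellular matrix 13 rose, 1 fell and 15 were not called (median difference 0.13, median G+C 52.1%). LAMA5, a laminin chain, moved from a median of 3.90 to 13.7 RPKM and by 1.44 (SE 0.13) on the log2 scale. COL6A1 and COL6A2, chains of collagen VI, moved by 0.99 and 1.12. Of 29 keratin and epithelial junction genes 14 rose and 5 fell. KRT8 rose from 18.5 to 24.8 RPKM in replicate 1 to 25.7 to 32.6 in replicate 2, without overlap, at 56.2% G+C. Among 13 SK-OV-3 and ovarian carcinoma markers 7 rose and 1 fell. ERBB2 held 40.1 to 66.4 RPKM, PAX8 14.4 to 35.6 and EPCAM 13.5 to 32.7 over all 16 libraries. Other markers of the list were low, with MUC16 at 0.0455 RPKM or less, CLDN3 at 0 to 3.54 and WT1 at 0.379 to 1.87. Of 21 markers of other cell types 15 were under 1 RPKM in every library of both numbers, PTPRC, CD3E, CDH5 and ALB among them, and the summed level of the 21 was 18.5 to 63.0 RPKM in replicate 1 and 21.9 to 66.3 in replicate 2. COL1A1 (61.1% G+C) made up 3.15 to 21.3 and 8.01 to 31.3 RPKM of it. LUM, a matrix proteoglycan (36.3% G+C), held 7.84 to 26.1 and 6.05 to 20.5 RPKM and was lower in 8 of 8 pairs (log2 difference -0.25, limma, adjusted p = 0.00536). Of the 6 markers that could be tested 2 rose and 1 fell.

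Lipid genes moved in both directions. FASN, the fatty acid synthase (65.3% G+C), held 5.72, 13.3 and 17.4 RPKM in replicate 1 and 27.7, 38.4 and 43.0 in replicate 2 (log2 difference 1.51, SE 0.16), with no overlap. SREBF1, which encodes the SREBP1 transcription factor, rose by 0.82, and MVD, the mevalonate diphosphate decarboxylase, by 0.98. ACSL3, an acyl-CoA synthetase (38.1%), and ELOVL5, a fatty acid elongase (41.7%), differed by -0.15 and -0.12. STARD4, a sterol transporter (34.2%), fell by 0.22, from a median of 23.8 to 19.8 RPKM. In all, 10 of 24 cholesterol genes rose and 8 fell, as did 3 and 6 of 13 fatty acid genes.

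Stress and signalling lists held members of both directions. Among 27 ATF4 and amino acid response genes 14 rose and 9 fell. CEBPB, a transcription factor (66.2% G+C), rose by 0.45 and TRIB3, a pseudokinase (60.9%), by 0.40. Of 21 NRF2 and oxidative stress genes 7 rose and 8 fell, with GCLM, of glutathione synthesis (37.3%), at a log2 difference of -0.25. Of 21 heat shock genes 6 rose and 6 fell, and HSF1, their transcription factor (64.7%), moved from a median of 11.7 to 21.2 RPKM. Of 32 interferon-stimulated genes 4 rose and 9 fell; ISG15 differed by 1.75, IRF7, a transcription factor of the interferon response, by 1.40 and HERC5, the ligase of ISG15 (44.1%), by -0.17. The 27 p53 targets held 11 that rose and 9 that fell; GDF15, a secreted stress cytokine (62.9%), differed by 0.70 and C12orf5, which encodes TIGAR (44.2%), by -0.29. Of 21 TGF-beta and activin response genes 9 rose and 2 fell. TGFB1, the cytokine TGF-beta 1 (63.5%), rose by 0.41 without overlap, and ID1, a target of BMP signalling (58.6%), by 0.68. Of 29 NF-kB targets and cytokines 7 rose and 4 fell, and RELB, an NF-kB subunit (65.4%), rose by 0.63.

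Housekeeping lists were counted in the same way. Of 51 cytosolic ribosomal protein genes 12 rose and 10 fell; RPL8 (63.1% G+C) rose by 0.29 and RPLP1 (46.6%) by 0.22. Of the 13 mitochondrially encoded mRNAs 0 were called by limma, with 1 at an unadjusted p under 0.05, and voom on the recovered reads called 0. Their most abundant members lay near the same read density in every library, MT-ND4 at 1.75 to 1.83 and MT-CYB at 1.63 to 1.80 reads per base, so these counts say little about their levels. Of 40 nuclear respiratory chain genes 7 rose and 13 fell; the complex I subunits NDUFV1 (59.4%) and NDUFS1 (42.1%) differed by 0.49 and -0.12. Of 28 lysosome and autophagy genes 9 rose and 5 fell, with GAA (acid alpha-glucosidase, 64.1%) up by 1.11 and LAMP1 (51.2%) by 0.22. Of 53 replication histone genes 15 rose and the other 38 were not called; HIST3H2A held 1.66 to 3.02 RPKM in replicate 1 and 4.29 to 8.64 in replicate 2. RMRP, the RNA of RNase MRP, moved from a median of 3.79 to 11.7 RPKM. Over the 30 lists, Spearman's correlation of the median difference with the median G+C was 0.91, given as a description of lists that share genes and libraries.

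**Figure D5:**
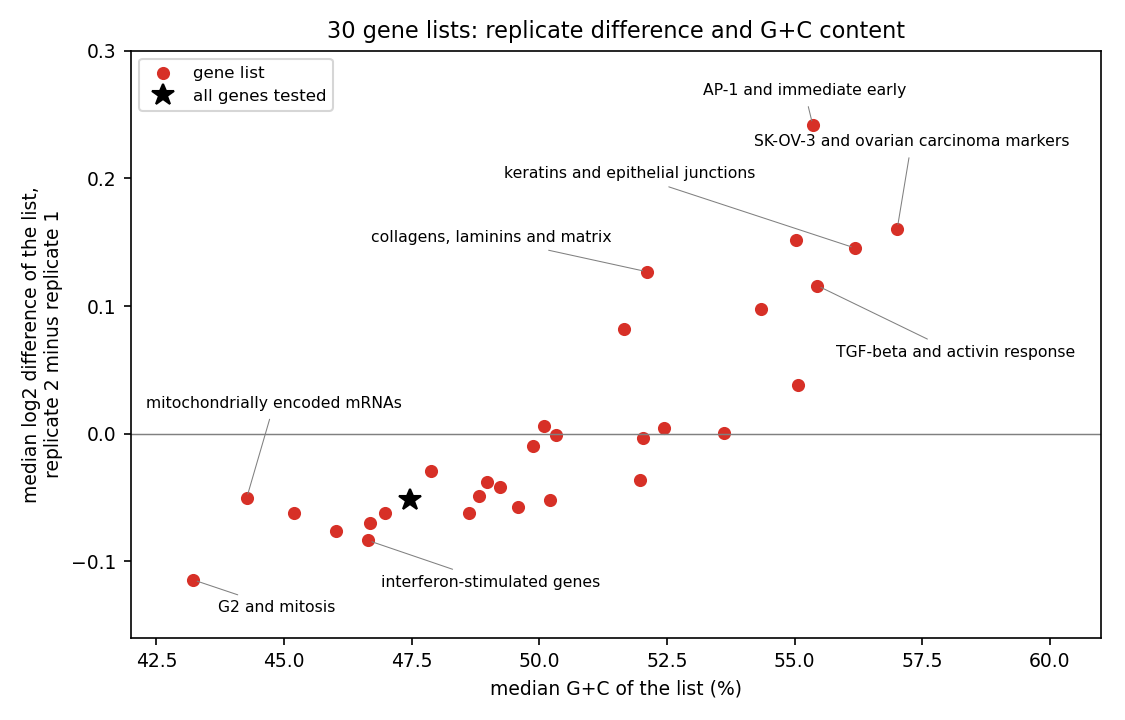
Median log2 difference (replicate 2 minus replicate 1) of 30 gene lists against the median G+C of their members, with the star at all genes tested (47.5% and -0.05). The list of AP-1 and immediate early genes is highest at 0.24 and that of G2 and mitosis genes lowest at -0.11.

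By position, chromosome 19 had the largest share of genes higher in all 8 pairs (489 of 1257, 38.9%), followed by 16 (31.4%) and 22 (31.1%). Its 226 numbered ZNF genes behaved apart from their neighbours: 15 were higher and 62 lower in all 8 pairs, at a median G+C of 42.2%, against 474 higher and 19 lower of the other 1031 genes of the chromosome at 58.0%. Chromosomes 5, 18 and 8 had the largest shares of lower members, at 22.1%, 22.0% and 21.9%. The 33 mitochondrial genes held 0 members. Of 12326 protein-coding genes 20.9% were higher and 21.0% lower in all 8 pairs, and of 168 small nucleolar RNA genes 0 and 3 were.

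Removing the trend with G+C left fewer calls, and they had other members. After the values of each library were centred within 20 bins of G+C and 5 of level, an adjustment chosen after the data were seen, 3043 of 17484 genes (17.4%) were called by limma, 1593 higher (9.11%) and 1450 lower (8.29%). Of these, 1703 had been called in the same direction without centring, 516 in the opposite direction and 824 not at all. In all 8 pairs 1301 genes were then higher and 1183 lower, of which 1033 and 246 had been so before, and 299 had turned from higher to lower. The genes called after centring still lay at high G+C, with medians of 56.3% for the higher and 57.9% for the lower. NME3 kept a difference of 1.41 (limma, adjusted p = 5.81e-05), JUNB 0.63, FASN 0.83 and CYP51A1 0.94. Of the 12 largest increases, the 11 with a G+C value all remained called by limma. MIR4442 had no such value and was not in the centred fit. Among the 12 largest decreases, 9 remained called. PRMT1 came to 0.05 (limma, adjusted p = 0.536) and CDK1 to -0.04 (adjusted p = 0.135). The calls of KIF11 (-0.03, adjusted p = 0.466), STARD4 (-0.03, adjusted p = 0.351), PLK1 (0.04, adjusted p = 0.296) and 8 other named genes were lost as well. Genes with high G+C that had moved less than their bin turned negative, TGFB1 to -0.44, RELB to -0.22 and CEBPB to -0.23. NRARP, at -0.03 without centring, came to -0.87. Of the AP-1 list 9 genes were then higher and 4 lower, of the matrix list 10 higher, and of the G2 and mitosis list 1 and 3.

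The untreated pairs alone gave 2345 higher and 1985 lower calls (limma, 23.9% of genes together). The cisplatin pairs alone gave 0 calls (0%), with 5945 genes at an unadjusted p under 0.05; NME3 differed by 2.28 there and by 2.23 in the untreated pairs. After centring by G+C and level, 5.81% of genes were called in the untreated pairs and 3.35% in the cisplatin pairs. The replicate difference with cisplatin was tested against that without, and limma called 0 of 18149 genes, with 566 (3.12%) at an unadjusted p under 0.05. Between the shPRMT1 and shScramble pairs the difference was likewise called in 0 genes, with 822 (4.53%) at an unadjusted p under 0.05 and only 2 shScramble pairs behind it; voom on the recovered reads also called 0 in both tests.

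Set beside the study's own factors, the replicate number took a small share of the variance in most genes and a large share in the higher members. In the median gene the group took 81.8% of the variance of log2(RPKM + 1) and the replicate number 5.73%. These shares are not corrected for the number of levels, and the group has more levels than the replicate number. The group would therefore take the larger share on average even where neither had an effect. The shares alone do not rank the group against the number. In the median higher member the shares were 47.4% and 42.1%, and in 1310 of them (47.2%) the number took the larger share. The number chose these genes, and the shares are a description. The treatment comparison depended on whether the number was in the model. Cisplatin against untreated, averaged over the 4 populations, called 10340 genes (57.0%, 5720 higher and 4620 lower) without and 12367 (68.1%) with the replicate block. Among the 2776 higher members the calls rose from 936 (33.7%) to 1775 (63.9%). The rule chose these members for a replicate difference that the block takes out of the error, so this rise follows from the choice. That holds for NME3 and LAMA5 too, both higher members. NME3 fell by 0.66 with cisplatin, with an adjusted p of 0.465 without and 0.00568 with the block (limma). LAMA5 had a cisplatin difference of -1.07, at 0.0710 and 2.76e-05.

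For shPRMT1 against shScramble, averaged over both treatments, 4067 genes were called (22.4%, 2134 higher and 1933 lower) without and 6867 (37.8%, 19.7% higher and 18.1% lower) with the replicate block. The error came from the spread between the libraries of a group, not between hairpin populations, and shScramble was the only control population. These p-values therefore do not measure how far the hairpins agree. Among the higher members the calls rose from 153 (5.51%) to 717 (25.8%), and among the lower members from 611 (21.8%) to 1455 (52.0%). As with cisplatin, these rises among the members follow from how the members were chosen. The count without the block fell to 2312 when shScramble cisplatin replicate 1 was left out, to 2675 without shScramble untreated replicate 1 and to 2671 without shScramble untreated replicate 2. No call was lost with the block, and 2800 were gained.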

How the data were processed

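Total RNA of 16 SK-OV-3 libraries was sequenced with an unstranded TruSeq RNA kit, per the labels' protocols. The authors deposited 1 table of linear RPKM values on GRCh37. The submitters' processing notes name HISAT2, DESeq2, GRCh37 and mm9; for their versions, the counting program, the annotation release and the handling of duplicate reads, nothing is given in the sources used here. Genes and their antisense partners cannot be told apart without strand. The steps between RPKM values gave whole reads for 40649 of 40649 genes above 0 (within 0.01 reads), with totals of 12289300 to 16039735 per library, so that 3 reads in a 2 kb model equal 0.0935 to 0.122 RPKM. Read counts of abundant transcripts lay close together: MT-ND4 held 1.75 to 1.83 reads per base in every library and MMP1 held 1.50 to 1.84.

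Differences were fitted with limma 3.58.1 (R 4.3.3, trended prior) on log2(RPKM + 1) for genes of at least 1 RPKM in 2 or more libraries, with group as a term and Benjamini-Hochberg adjustment over all genes fitted, and called at an adjusted p under 0.05. Fold changes on this scale understate the change of low genes. A simulation drew independent normal noise for each gene and changed 200 genes. In it the fit of replicate 2 against replicate 1 recovered 85% of genes changed by 0.5 and 97% of those changed by 1 (log2). There were 10 false calls with 18149 genes tested. The draws held no G+C trend shared between genes, unlike the real pairs. These rates therefore do not describe the calls made here. Library measures were compared with exact paired permutation tests (scipy 1.17.1). Named genes were the 12 largest called differences in each direction with a mean of at least 5 RPKM in the higher number and the same sign in all 8 pairs, the 4 called genes per list at most that had the smallest adjusted p, PRMT1, and those said to be chosen afterwards. The members and lists were chosen with earlier results of these data known. The replicate numbers pair the libraries: the differences of 2 groups, replicate 2 minus replicate 1, correlated over genes at 0.30 to 0.70 in all 28 pairs of groups, and at 0.10 to 0.39 after centring by G+C and level.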

Additional observations from a re-analysis of the deposited data

Results flagged for a closer look

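Of 13 library measures examined over the 8 pairs, 1 had a pair far from the others. The number of genes with at least 1 read was lower in replicate 2 than in replicate 1 in shPRMT1 #3 with cisplatin, a difference of -828, beyond the 95% limit of Dixon's test for 8 values. Chance alone gives such a value in about 1 in 20 sets of values.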

How the results depend on the processing

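The count of 8420 calls for replicate 2 against replicate 1 came to 4330 in the 4 untreated pairs, 0 in the 4 cisplatin pairs, 1337 with no group term and 3043 after centring by G+C and level. Leaving out each pair in turn gave 7048 to 8195. Centring left 1015 calls in the untreated pairs and 585 in the cisplatin pairs. Genes with the same direction in all pairs numbered 5576, or 6759 with libraries centred on their median, 190 at 1.5-fold in every pair, 2484 after centring and 5705 to 6621 with 1 pair left out, when fewer pairs had to match. The test of cisplatin against untreated pairs gave 0 to 1 calls with 1 pair left out, the 1 without shPRMT1 #3 cisplatin. That of shPRMT1 against shScramble pairs gave 0 in each such fit and 14 with no filter. The replicate block took the knockdown comparison from 4067 to 6867 calls, and to 7994 with centring; centring alone gave 6730, a mean of at least 5 RPKM 2558, and leaving out 1 library 2312 to 4706. The cisplatin comparison gave 6089 calls at a mean of at least 5 RPKM, with fewer genes tested, and 9672 to 10685 with 1 library left out. The cause of these moves was otherwise not tested.

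Of the 76 genes named, 11 changed sign under centring: ACSL3 (0.0079), ELOVL5 (0.0041), TRIB3 (-0.16), CEBPB (-0.23), CDC25B (-0.061), RELB (-0.22), TGFB1 (-0.44), RPL8 (-0.17), NDUFS1 (0.015), MUC1 (-0.75) and SHISA4 (-0.77). Centring ended the call of 13 more. The call of 73 was lost in the cisplatin pairs alone and that of 36 with no group term. Under pseudocount 0.1, median or quantile scaling, no filter, voom and each pair left out, all 76 kept their side of the threshold. No called gene among them changed direction, and the direction of genes not called was not compared. Centring by G+C and voom were chosen after seeing the data. edgeR and DESeq2, planned as alternatives, were not run; voom was fitted to the recovered reads in their place. Low read numbers limit short records such as MIR4442, with 0 to 10 reads in replicate 1.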
